A study of Mus musculus with 35 samples.

Results

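The replication-dependent histone genes are the clustered genes whose mouse symbols begin with Hist1h, Hist2h, Hist3h or Hist4h. The members were the protein-coding genes of this naming that reached 0.5 CPM (counts scaled to the library total) in at least 5 mice, and 44 of 67 such genes did so, among 17612 genes that passed the same filter and 55401 in the count table. Of the 44 members, 5 encoded linker histone H1 (of 6 genes), 12 encoded H2A (of 18), 9 encoded H2B (of 18), 8 encoded H3 (of 12) and 10 encoded H4 (of 13). The Hist1 cluster on chromosome 13 held 35 of them, the Hist2 cluster held 6, the Hist3 cluster held 2 and the Hist4 cluster held 1.

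The mRNA of CD45+ microglia was sequenced from wild-type C57BL/6 mice, with 1 library per mouse and no treatment. The animals were at postnatal day 6 (P6: 4 females and 6 males), P15 (6 females and 6 males) or 8 weeks (6 females and 6 males), and 1 further P6 female (female 6) was kept out of the comparisons. The study removed a mouse as an outlier, and the sources used here do not say which. Cells were taken from the dissociated whole brain by panning on an antibody to CD45, a surface protein of all leukocytes, so any CD45+ cell of the brain could be in a library. The 34 libraries held 23316107 to 38965078 counts, and 3 counts, the upper limit on the expected count where 0 was observed, were worth 0.0770 to 0.129 CPM.

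Histone proteins package DNA, and a dividing cell must double its stock of them while it copies its genome. Genes of this family are as a rule switched on together in S phase, lack introns, and give mRNAs that end in a short conserved stem-loop instead of a poly(A) tail. The stem-loop is bound by SLBP, and these mRNAs are destroyed once DNA synthesis stops. In cells that no longer divide, some of these genes also give longer mRNAs that run past the stem-loop and carry a poly(A) tail. Microglia, the resident macrophages of the brain, divide in the early postnatal brain and rarely in the adult.

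The annotated transcripts of the members fell into 2 kinds. In GENCODE M21 (build GRCm38), 23 members had a transcript that ran more than 100 bases past the stem-loop, or was long without holding the exact stem-loop searched for, and these are called extended here. Of these, Hist1h2bc and Hist1h2be had 2 exons. Their transcripts had 539 to 7425 bases. The 21 other members had transcripts of 312 to 743 bases that ended at the stem-loop or stopped before it. The split was made from annotation, was chosen after the values had been seen, and carries no test. The 16-base stem-loop was found in 33 members, and the form shared by H1, H2A, H2B and H3 genes occurred in 20 of them. The sequences below are from GENCODE transcripts, with the stem-loop in capitals and 5 flanking bases on each side, and are shown because the same element is present in genes that fell and genes that rose with age.
Hist1h3c: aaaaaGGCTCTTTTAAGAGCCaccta
Hist1h2ag: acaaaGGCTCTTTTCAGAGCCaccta
Hist1h1c: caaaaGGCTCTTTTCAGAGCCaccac
Hist1h2ac: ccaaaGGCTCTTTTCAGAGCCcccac
Hist3h2ba: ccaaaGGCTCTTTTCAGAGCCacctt
Hist1h4i: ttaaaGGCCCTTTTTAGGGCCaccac
Hist1h4d: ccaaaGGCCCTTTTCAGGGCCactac
Hist1h3c and Hist1h2ag end 74 and 23 bases after this element. The transcripts of Hist1h1c, Hist1h2ac, Hist3h2ba, Hist1h4i and Hist1h4d run 840, 2010, 169, 330 and 770 bases past it.

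Summed over the 44 members, the level was 195 ± 17.3 CPM at P6 (SD, n = 10), 231 ± 91.4 at P15 (n = 12) and 206 ± 42.5 at 8 weeks (n = 12), after scaling by the trimmed mean of M-values (TMM). The 21 members without extended transcripts summed to 11.03 to 19.6 CPM at P6 (median 18.4), 4.85 to 11.2 at P15 (median 6.37) and 4.70 to 10.3 at 8 weeks (median 7.30), so all 8-week mice lay below all P6 mice. Most of these 21 genes reached 0.5 CPM in 5 mice only through the P6 animals, a choice of members that favours a lower sum later. The 23 extended members summed to 144 to 207 CPM at P6 (median 181), 106 to 399 at P15 (median 210) and 132 to 277 at 8 weeks (median 194), and the ages overlapped. Extended members made up 91.3% ± 1.58 of the members' counts at P6, 96.7% ± 1.08 at P15 and 96.4% ± 0.686 at 8 weeks. Hist1h1c alone made up 46.5% ± 5.23, 60.0% ± 9.33 and 48.4% ± 3.73. These sums and shares are descriptions and were not tested.

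**Figure D1:**
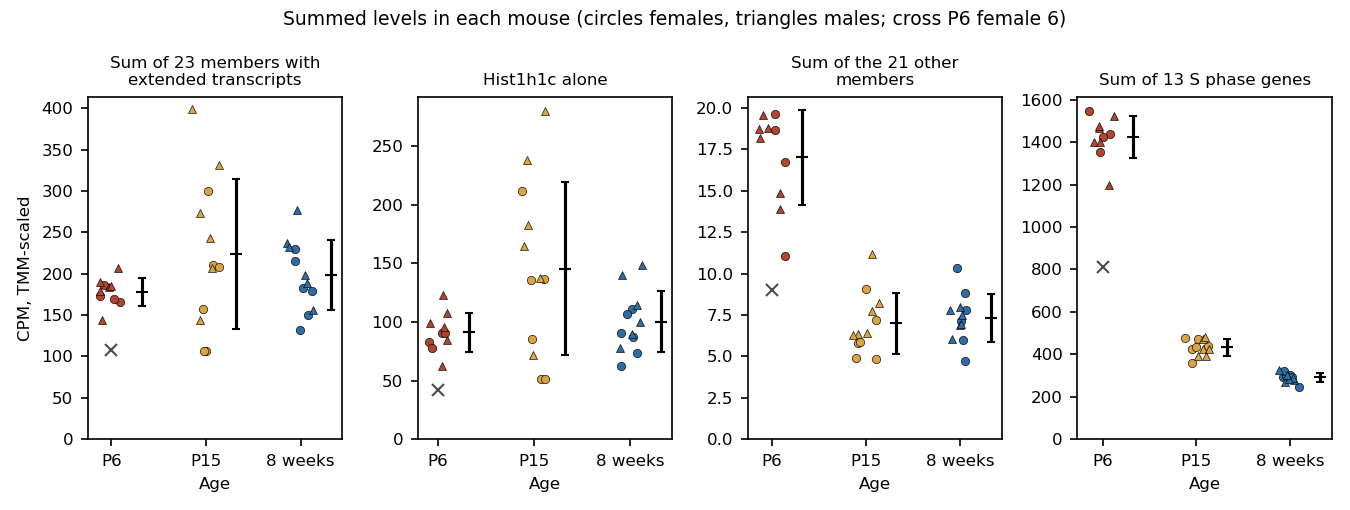
Summed TMM-scaled CPM in each mouse (vertical axes, each starting at 0) by age (horizontal axes) for the 23 extended members, Hist1h1c alone, the 21 other members and 13 S phase genes. Circles are females, triangles males, the bar is the mean and SD, and the cross is P6 female 6; the 21 other members and the S phase genes are highest at P6, and Hist1h1c spreads from 51.1 to 280 CPM at P15.

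Between P6 and 8 weeks, 21 members fell, 11 rose and 12 passed the test in neither direction (edgeR quasi-likelihood test, Benjamini-Hochberg adjusted p under 0.05 over all genes tested). Over all 17612 genes, 36.6% were lower and 37.8% higher. By more than 2-fold, 15 members were lower and 5 higher, against 12.4% and 11.5% of all genes. The median log2 fold change was -0.46 over the members and 0.04 over all genes. Among the 21 members without extended transcripts, 15 fell and 2 rose, with a median of -2.06. Among the 23 extended members, 6 fell and 9 rose, with a median of 0.30. These counts lean on the filter: 20 members would not have reached 0.5 CPM in 5 mice without the P6 animals, which favours lower values later. Of those 20, 16 fell and 0 rose, while of the 24 that passed without the P6 mice 5 fell and 11 rose. Hist2h2aa2 and Hist2h3c2, among these 24, reached 0.5 CPM in 0 P6 mice, which favours higher values later. Of the 20 members that reached it in at least 5 mice at each age, 3 fell and 9 rose.

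From P6 to P15, 27 members fell and 7 rose, against 31.4% of all genes lower and 30.4% higher. By more than 2-fold, 13 were lower and 1 higher (4.85% and 4.87% of all genes). Here too the count leans on the filter: of the 20 members that passed it only through the P6 mice 18 fell and 0 rose, while of the other 24 members 9 fell and 7 rose, which is 37.5% and 29.2% of them. Of the 20 members at 0.5 CPM in at least 5 mice at each age, 7 fell and 5 rose. From P15 to 8 weeks, 9 members fell and 12 rose, against 23.9% and 24% of all genes. Of the 20 that passed only through the P6 mice 6 fell and 2 rose, and of the other 24, 3 fell and 10 rose. With these 2 ages alone in the filter and the fit, 24 members could be tested, of which 1 fell and 9 rose. The share of all genes called in that fit is not given here. In this step 2 were lower and 0 higher by more than 2-fold (3.07% and 1.2% of all genes). The 3 comparisons share mice with one another, so their calls are not independent. Of the 10 H4 members, 8 fell from P6 to P15, and 5 rose while 0 fell from P15 to 8 weeks. Hist1h4d, Hist1h4h, Hist1h4j and Hist1h4k did both, of which Hist1h4j and Hist1h4k reached the filter only through the P6 mice. Hist1h4a and Hist1h4b, which also fell to P15, reached it only through those mice too. The falls of these H4 members to P15 were favoured by the choice of members. With the mean level of neuron and neural progenitor markers as a covariate (the neural marker covariate), Hist1h4j and Hist1h4k were the H4 members that rose after P15.

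**Figure D2:**
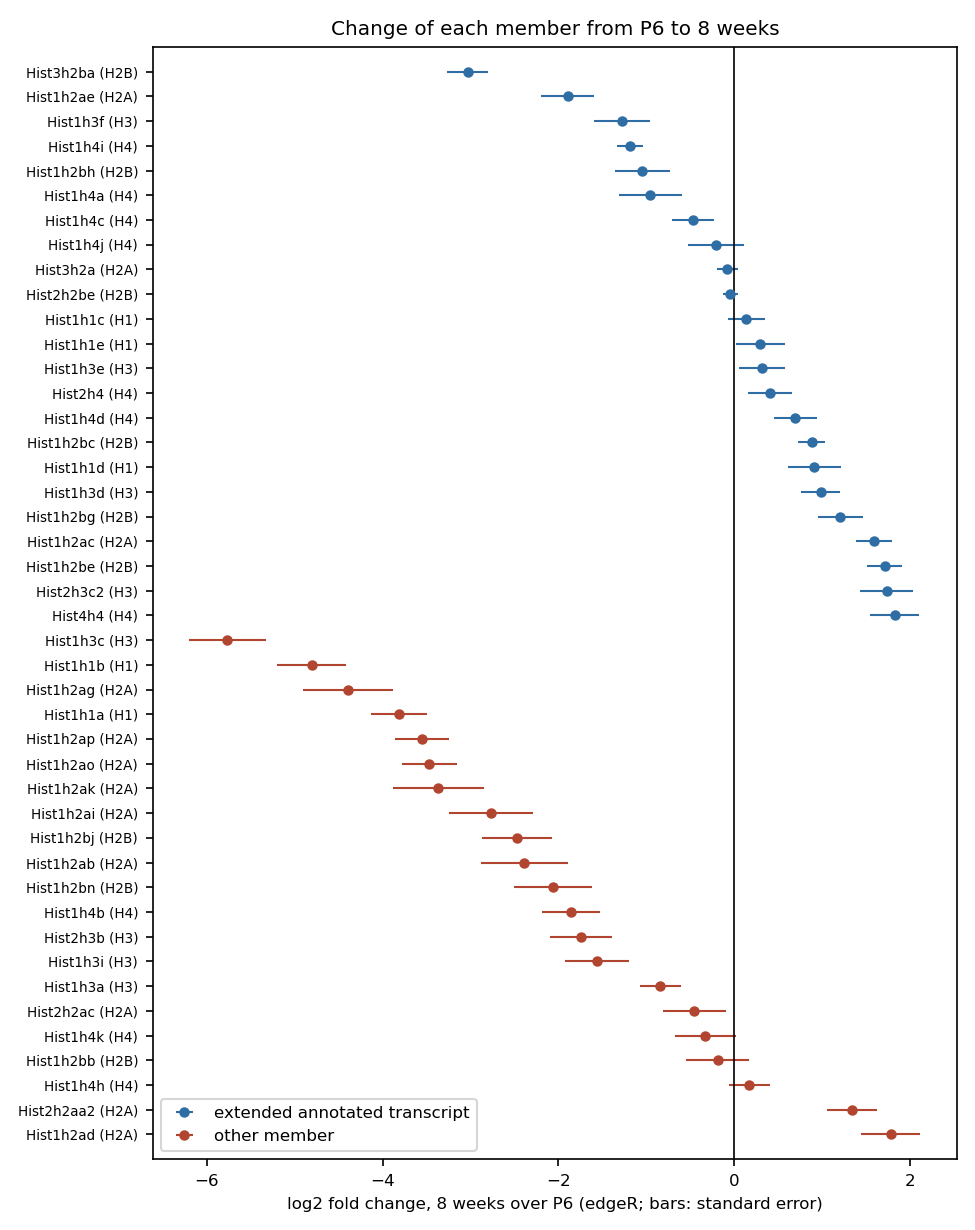
The log2 fold change of each of the 44 members from P6 to 8 weeks (horizontal axis) with its standard error as a bar, named with its histone class on the vertical axis. Extended members (blue, above) run from -3.03 to 1.83 and the other members (red, below) from -5.77 to 1.78.

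Without the filter on low counts, 62 of the 67 genes had at least 1 count and could be fitted. From P6 to 8 weeks 33 of these 62 fell and 11 rose, and of the 36 without extended transcripts 27 fell and 2 rose. Of all 35496 genes in that fit, 22.1% were lower and 22.7% higher. The 23 genes that missed the filter were Hist1h1t, Hist1h2aa, Hist1h2af, Hist1h2ah, Hist1h2an, Hist1h2ba, Hist1h2bf, Hist1h2bk, Hist1h2bl, Hist1h2bm, Hist1h2bp, Hist1h2bq, Hist1h2br, Hist1h3b, Hist1h3g, Hist1h3h, Hist1h4f, Hist1h4m, Hist1h4n, Hist2h2aa1, Hist2h2ab, Hist2h2bb and Hist2h3c1.

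The linker histone H1 members, which bind the DNA between nucleosomes, behaved in separate ways. Hist1h1c (ENSMUSG00000036181, chr13:23738808-23740367) was the highest member per kilobase of exon, at 72.1 CPM per kilobase over the 3 age means. Its level ran from 62.5 to 123 CPM at P6 (median 90.6), from 51.1 to 280 at P15 (median 137) and from 62.8 to 149 at 8 weeks (median 95.3). All 3 ages overlapped, and P15 had the widest spread. From P6 to P15 Hist1h1c rose 1.57-fold (log2 0.65, SE 0.21, edgeR adjusted p = 0.00838), a call that ended with a neural marker covariate (log2 -0.10, adjusted p = 0.723). From P15 to 8 weeks it fell (log2 -0.51, SE 0.20, adjusted p = 0.0329), a call not made by limma-voom (adjusted p = 0.113), without the filter on low counts (0.0599), with the 2 ages alone in the fit (0.0632) or with the replicate number as a block (0.0808), while with the neural marker covariate the fall was larger (log2 -1.30, adjusted p = 3.92e-05). Between P6 and 8 weeks the log2 difference was 0.14 with a 95% interval of -0.27 to 0.55 (adjusted p = 0.545).

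Hist1h1a and Hist1h1b have no extended transcript, and both are members only through their P6 values, so that their falls were favoured by the choice of members. Hist1h1a ran from 0.825 to 2.31 CPM at P6 (median 1.56), from 0.0899 to 0.452 at P15 (median 0.228) and from 0 to 0.284 at 8 weeks (median 0.0920). Hist1h1b ran from 0.954 to 2.58 CPM at P6 (median 1.64), from 0.0436 to 0.540 at P15 (median 0.277) and from 0 to 0.212 at 8 weeks (median 0.0334). Neither gene's P6 values overlapped those at P15 or 8 weeks. Hist1h1a fell by 3.81 on the log2 scale from P6 to 8 weeks (SE 0.32, adjusted p = 3.05e-12) and Hist1h1b fell by 4.81 (SE 0.39, adjusted p = 1.97e-12). At 8 weeks they rested on 0 to 9 and 0 to 7 counts a mouse, so the size of these folds is loosely fixed. Their joint share of H1 counts went from 3.30% ± 1.02 at P6 to 0.428% ± 0.248 at P15 and 0.169% ± 0.1003 at 8 weeks.

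Hist1h1d and Hist1h1e have extended transcripts. Hist1h1d ran from 1.55 to 3.43 CPM at P6 (median 2.49), from 0.390 to 8.75 at P15 (median 2.61) and from 2.23 to 7.06 at 8 weeks (median 4.62), and rose 1.88-fold from P6 to 8 weeks (log2 0.91, SE 0.30, adjusted p = 0.00745). That call ended with the neural marker covariate (log2 -0.96, adjusted p = 0.183). Hist1h1e had medians of 3.17, 3.09 and 4.15 CPM and passed no test between ages; its log2 difference from P6 to 8 weeks was 0.30 (SE 0.28, adjusted p = 0.337). Its exon overlaps the gene model of Hist1h2be on the same strand, and a read that lies in both genes is assigned to neither by default.

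**Figure D3:**
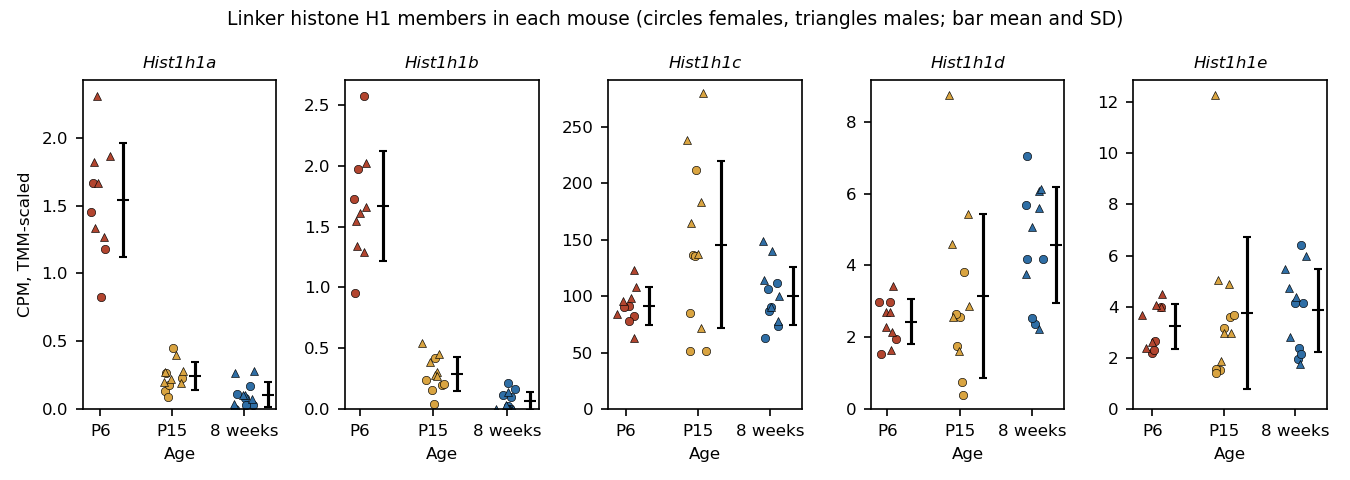
TMM-scaled CPM (vertical axes, each starting at 0) of the 5 linker histone members in each mouse by age; circles are females, triangles males, and the bar is the mean and SD. Hist1h1a and Hist1h1b are highest at P6 with no overlap with later ages, while Hist1h1c overlaps at all ages.

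H2A forms a dimer with H2B in the nucleosome. Hist1h2ag and Hist1h2ap, without extended transcripts, are again members only through their P6 values. Hist1h2ag ran from 0.457 to 1.56 CPM at P6 (median 0.965), from 0 to 0.280 at P15 (median 0.0830) and from 0 to 0.165 at 8 weeks (median 0), and fell by 4.40 on the log2 scale (SE 0.51, adjusted p = 3.93e-09). Hist1h2ap went from 0.761 to 1.66 CPM at P6 to 0 to 0.189 at 8 weeks, with no overlap, and fell by 3.55 (SE 0.31, adjusted p = 8.40e-12). Of their 100-base windows, 76.2% and 92.2% also occur in other genes, so read assignment for both is uncertain.

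Other H2A members rose. Hist1h2ac had medians of 3.22 CPM at P6 and 3.56 at P15 and then 10.7 at 8 weeks, within ranges of 2.29 to 5.35, 2.25 to 7.75 and 4.69 to 17.8. It rose 3.02-fold from P6 to 8 weeks (log2 1.59, SE 0.21, adjusted p = 3.12e-08), and 2.69-fold from P15 to 8 weeks (adjusted p = 3.71e-07). Hist1h2ad, without an extended transcript, went from 0.278 to 1.04 CPM at P6 to 0.655 to 4.25 at 8 weeks and rose 3.44-fold (log2 1.78, SE 0.34, adjusted p = 2.35e-05). Hist2h2aa2 went from a median of 0.268 CPM at P6 to 0.669 at P15 and 0.684 at 8 weeks and rose by 1.35 on the log2 scale from P6 to 8 weeks (SE 0.29, adjusted p = 9.94e-05). It reached 0.5 CPM in 0 P6 mice, so the choice of members favoured this rise. With the neural marker covariate the rises of Hist1h2ac, Hist1h2ad and Hist2h2aa2 from P6 to 8 weeks did not pass the test (adjusted p = 0.190, 0.897 and 0.241). Every 100-base window of Hist2h2aa2 recurs in another gene, and its near-copy Hist2h2aa1 had 0 counts, so the 2 copies cannot be told apart. Hist3h2a (chr11:58954685-58956830), an H2A gene on chromosome 11 that shares an exon with Trim17, had medians of 10.7, 11.1 and 10.2 CPM. Its log2 difference from P6 to 8 weeks was -0.08 with a 95% interval of -0.32 to 0.16 (adjusted p = 0.574).

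Among H2B members, Hist3h2ba (chr11:58948920-58949533), the neighbour of Hist3h2a, fell in steps. It ran from 10.1 to 26.9 CPM at P6 (median 20.6), from 3.33 to 14.8 at P15 (median 6.23) and from 1.30 to 4.06 at 8 weeks (median 2.05). All 8-week mice lay below all P6 mice. It fell by 1.60 on the log2 scale from P6 to P15 (SE 0.22, adjusted p = 2.18e-07) and by a further 1.43 to 8 weeks (SE 0.22, adjusted p = 3.35e-06). With the neural marker covariate the later step was -0.37 and lost its call (adjusted p = 0.272).

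Hist1h2bc, the highest H2B member per kilobase, moved the other way. Its ranges were 10.3 to 17.0 CPM at P6 (median 14.9), 11.4 to 28.3 at P15 (median 18.2) and 17.0 to 40.6 at 8 weeks (median 23.8), and every 8-week mouse lay above every P6 mouse. It rose 1.84-fold (log2 0.88, SE 0.16, adjusted p = 6.89e-06), a call that ended with the neural marker covariate (log2 0.27, adjusted p = 0.505). Hist1h2be ran from 0.979 to 2.73 CPM at P6, 1.11 to 2.62 at P15 and 3.49 to 8.43 at 8 weeks, so that 8 weeks overlapped neither younger age. It rose 3.28-fold from P6 to 8 weeks (log2 1.71, SE 0.20, adjusted p = 2.99e-09).

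H3 and H4 form the core tetramer of the nucleosome. Hist1h3c, a member only through its P6 values, had the lowest log2 fold change among the members. It went from 0.791 to 2.03 CPM at P6 (median 1.61) to 0.0643 to 0.429 at P15 (median 0.155) and 0 to 0.225 at 8 weeks (median 0), with P6 clear of both later ages. Its log2 fold change was -3.07 at P15 (SE 0.33, adjusted p = 1.98e-09) and -5.77 at 8 weeks (SE 0.43, adjusted p = 2.44e-13), the latter resting on 0 to 6 counts a mouse. Hist1h3a, with medians of 1.23, 0.781 and 0.762 CPM, fell by 0.84 from P6 to 8 weeks (SE 0.24, adjusted p = 0.00221). Hist1h3d rose 1.98-fold from medians of 1.59 CPM at P6 and 1.75 at P15 to 2.78 at 8 weeks (log2 0.99, SE 0.22, adjusted p = 2.00e-04). That call from P6 to 8 weeks ended with the neural marker covariate (log2 -0.15, adjusted p = 0.819). Hist2h3c2 rose between P6 (median 0.288 CPM) and P15 (median 0.920) by 1.72 on the log2 scale (SE 0.30, adjusted p = 1.18e-05) and had a median of 0.894 at 8 weeks. It reached 0.5 CPM in 0 P6 mice, so the choice of members favoured this rise. It shares 61.6% of its 100-base windows with other Hist2 H3 genes.

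Hist1h4i (chr13:22040636-22041362), the highest H4 member per kilobase, ran from 6.11 to 9.65 CPM at P6 (median 7.86), from 1.89 to 5.42 at P15 (median 3.52) and from 2.18 to 5.45 at 8 weeks (median 3.19). P6 overlapped neither later age. It fell by 1.17 on the log2 scale from P6 to P15 (SE 0.15, adjusted p = 5.79e-08), and the log2 difference between P15 and 8 weeks was -0.02 (SE 0.14, adjusted p = 0.938). Hist1h4d dipped from a median of 1.57 CPM at P6 to 0.937 at P15 (log2 -0.65, SE 0.24, adjusted p = 0.0219) and stood at 2.38 at 8 weeks, 2.55-fold above P15 (log2 1.35, SE 0.23, adjusted p = 2.34e-05). Hist1h4h had medians of 0.888, 0.628 and 1.18 CPM, fell to P15 (log2 -0.57, SE 0.24, adjusted p = 0.0355) and rose after it (log2 0.75, SE 0.23, adjusted p = 0.00718). The falls of Hist1h4d and Hist1h4h to P15 each lost their call without 1 mouse: without P6 female 3 the adjusted p for Hist1h4d was 0.0643, and without P6 female 2 that for Hist1h4h was 0.0515. The Hist1h4h call was also lost with all 35 mice (0.0530), without the filter (0.0672), with the 2 ages alone (0.0761) and with the neural marker covariate (0.204). With that covariate the rises of Hist1h4d and Hist1h4h after P15 missed the threshold too (adjusted p = 0.0511 and 0.0654). Hist4h4, alone on chromosome 6, went from a median of 0.463 CPM at P6 to 0.730 at P15 and 1.46 at 8 weeks and rose 3.55-fold from P6 (log2 1.83, SE 0.28, adjusted p = 6.25e-07). That call from P6 to 8 weeks ended with the neural marker covariate (log2 0.58, adjusted p = 0.438).

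**Figure D4:**
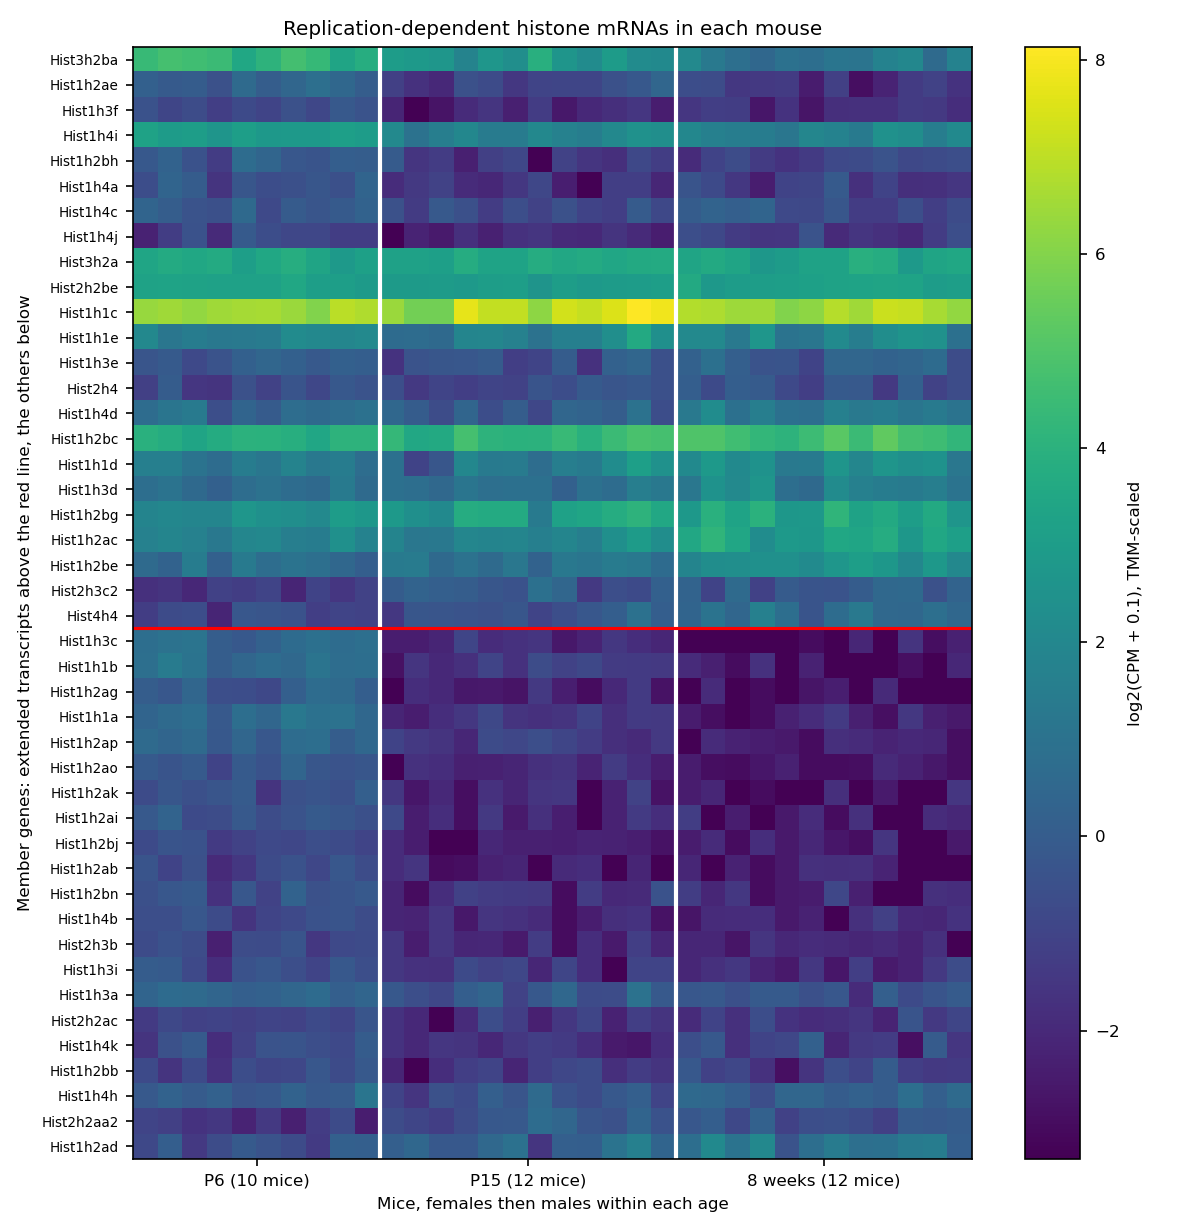
Heat map of log2(CPM + 0.1) for the 44 members (rows) in each of the 34 mice (columns, by age, females then males), with extended members above the red line and the others below, ordered by change from P6 to 8 weeks. The lower block darkens after P6 in most rows, and Hist1h1c is the brightest row at all ages.

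Many H2A and H2B genes lie head to head and share the stretch between their starts. There were 5 such pairs with both genes among the members and a gap under 500 bases. Hist1h2ae and Hist1h2bg start 175 bases apart on chromosome 13. Hist1h2ae ran from 0.619 to 1.74 CPM at P6 (median 0.993) and from 0.0338 to 0.549 at 8 weeks (median 0.282), and fell by 1.89 on the log2 scale (SE 0.30, adjusted p = 1.34e-06). Hist1h2bg ran from 3.48 to 7.82 CPM at P6 (median 4.51) and from 6.12 to 17.9 at 8 weeks (median 9.81), and rose by 1.21 (SE 0.25, adjusted p = 8.34e-05). With the neural marker covariate Hist1h2bg did not rise: its log2 change was -0.46 from P6 to 8 weeks (adjusted p = 0.465) and -0.81 from P15 (adjusted p = 0.0387). The log2 ratio of Hist1h2bg to Hist1h2ae went from 2.06 ± 0.435 at P6 to 4.04 ± 0.690 at P15 and 4.86 ± 0.781 at 8 weeks, with all 8-week mice above all P6 mice. Hist1h2ac and Hist1h2bc, 250 bases apart, both rose from P6 to 8 weeks, calls that ended with the neural marker covariate (log2 0.66, adjusted p = 0.190, and log2 0.27, adjusted p = 0.505). The log2 ratio of Hist1h2bc to Hist1h2ac went from 2.06 ± 0.281 at P6 to 1.39 ± 0.393 at 8 weeks. Hist1h2ag with Hist1h2bj and Hist1h2ak with Hist1h2bn, all members only through their P6 values, fell from P6 to 8 weeks. For Hist2h2be over Hist2h2ac the log2 ratio was 4.18 ± 0.406, 4.66 ± 0.689 and 4.60 ± 0.679 in order of age, and neither gene passed the test from P6 to 8 weeks. The pair ratios are descriptions, with 0.1 CPM added to each gene.

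The shared stretch of the divergent pair is printed because 1 piece of DNA faces a gene that fell and a gene that rose in the fit without the covariate. The window is the RefSeq promoter of Hist1h2bg (GRCm38.p6, plus strand, chr13:23571150-23571449), 250 bases before to 50 after its start, where capitals mark CCAAT on either strand (ATTGG on the other), the TATA box TATAAA and the octamer motif ATTTGCAT.
Hist1h2bg: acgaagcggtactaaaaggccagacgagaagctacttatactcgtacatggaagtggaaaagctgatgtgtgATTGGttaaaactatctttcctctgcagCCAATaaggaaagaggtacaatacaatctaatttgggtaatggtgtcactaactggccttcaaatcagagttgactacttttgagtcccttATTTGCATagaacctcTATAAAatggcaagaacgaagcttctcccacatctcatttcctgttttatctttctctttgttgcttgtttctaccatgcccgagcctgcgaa
Hist1h1c: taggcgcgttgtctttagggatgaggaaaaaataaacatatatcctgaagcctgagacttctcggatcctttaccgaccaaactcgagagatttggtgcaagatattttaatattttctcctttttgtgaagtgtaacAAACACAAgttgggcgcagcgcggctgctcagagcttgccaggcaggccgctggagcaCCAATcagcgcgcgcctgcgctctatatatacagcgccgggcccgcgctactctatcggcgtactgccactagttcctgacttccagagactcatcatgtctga
The Hist1h1c promoter (plus strand, chr13:23738557-23738856) is shown beside it as that of the highest member, with CCAAT and the AC box AAACACAA in capitals. Of the 44 members, 38 were matched to 1 RefSeq promoter. CCAAT on either strand was present in 32 of the 38 (37.4% of all 32851 promoters) and TATAAA in 21 (13.6% of all). The octamer was present in 7 (1.74% of all), which were 5 H2A and 2 H2B genes, and the AC box in 4, of which 3 were H1 genes (1.93% of all). None of these 4 motifs is contained in another. CCAAT was present in 15 of 18 extended members and 17 of 20 others. A match is a description of the letters only.

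**Figure D5:**
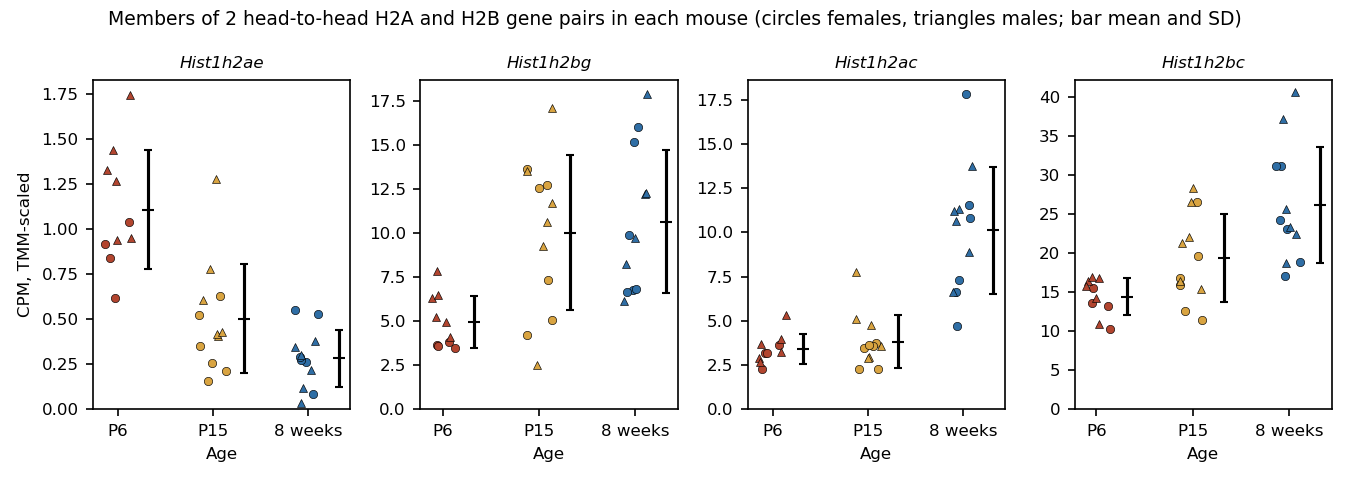
TMM-scaled CPM (vertical axes, each starting at 0) in each mouse by age for 2 head-to-head pairs, Hist1h2ae with Hist1h2bg and Hist1h2ac with Hist1h2bc; circles are females, triangles males, and the bar is the mean and SD. Hist1h2ae goes down while Hist1h2bg goes up, and both genes of the other pair go up.

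Markers of other cells moved with age too. The 9 genes of neural progenitors and immature neurons summed to 661 to 2037 CPM at P6, 124 to 845 at P15 and 89.0 to 206 at 8 weeks, and all 9 fell in each comparison. The 6 neuron markers summed to 276 to 926, 89.5 to 693 and 48.4 to 212 CPM. From P6 to P15 2 of these 6 rose and 2 fell, against 30.4% and 31.4% of all genes. From P6 to 8 weeks 1 rose and 4 fell. The 6 microglia markers summed to 9074 to 16650.5 CPM at P6 and 26450.5 to 39144 at 8 weeks, and all 6 rose from P6 to P15 and to 8 weeks. No gene of these 3 lists was at 0 in any of the 34 mice: Dcx, of immature neurons, ran from 109 to 419 CPM at P6 and from 0.692 to 7.23 at 8 weeks. The 9 monocyte and macrophage markers summed to 724 to 1577 CPM at P6 and 366 to 719 at 8 weeks, and the 10 lymphocyte and neutrophil markers to 33.9 to 65.5 and 59.1 to 274 CPM. From P6 to 8 weeks 4 of the first list fell and 2 rose, and of the 9 tested genes of the second 1 fell and 8 rose, against 36.6% and 37.8% of all genes, while Ly6g, a neutrophil marker, was at 0 in some mice of every age. In such bulk libraries fewer cells of a type and less RNA per cell cannot be told apart.

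The mean log2 CPM of the neuron and progenitor markers ran from 4.75 to 6.47 at P6, 2.83 to 5.60 at P15 and 1.83 to 3.42 at 8 weeks, so that P6 and 8 weeks did not overlap. Within ages, 2 members picked after their values were seen are described against it, with no test, since they were chosen for this pattern. Hist3h2ba was higher in P6 mice with higher neural markers (Pearson's r = 0.957, Spearman's rho = 0.830, n = 10), and r was 0.861 without the 2 mice farthest from the median. At P15 r was 0.720 and rho 0.776 (n = 12), with r = 0.751 without 2 mice. Hist1h1c was lower where the neural markers were higher, with r = -0.714 and rho = -0.697 at P6 (r = -0.597 without 2 mice) and r = -0.860 and rho = -0.818 at P15 (r = -0.829 without 2 mice). At 8 weeks r was 0.221 for Hist3h2ba and 0.113 for Hist1h1c, with rho 0.168 and 0.182. The points are libraries of both sexes.

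With this marker mean as a covariate, 18 members fell and 2 rose from P6 to 8 weeks, against 23.5% of all genes lower and 25.3% higher in that fit. The 2 were Hist1h2be (log2 1.73, adjusted p = 0.00217) and Hist2h3c2. Of the members without extended transcripts 11 fell, Hist1h1a, Hist1h1b, Hist1h2ag, Hist1h2ap and Hist1h3c among them. Hist3h2ba fell by 1.29, less than its 3.03 without the covariate (adjusted p = 0.00724). Hist1h1c then fell by 1.40 (SE 0.37, adjusted p = 0.00233), and the rises of Hist1h1d, Hist1h2ac, Hist1h2ad, Hist1h2bc, Hist1h2bg, Hist1h3d, Hist1h4d, Hist2h2aa2 and Hist4h4 did not pass the test. Since the marker mean and age move together, the part of each in these changes cannot be told apart.

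P6 female 6, the mouse left out, had the summed level of the extended members at 108 CPM and of the others at 9.03, both below every other P6 mouse. It lay below the other P6 mice in 22 of 44 members and above them in 0, while its neural progenitor markers summed to 2323 CPM, above the others, and its microglia markers to 4190, below them. The share of all genes outside the range of the other P6 mice is not given here, so the count of 22 is not a result about the members. Its values were scaled by TMM over all 35 mice, those of the other mice over 34. Hist3h2ba stood at 25.5 CPM in P6 female 6, within the range of the other P6 mice.

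Between males and females no member passed the test at P6, P15 or 8 weeks (edgeR; 0.0511%, 0.0681% and 0.114% of all genes were called). At an unadjusted p under 0.05 there were 0, 7 and 3 members, and limma-voom and DESeq2 called 0. The share of all genes at that unadjusted threshold is not given here, so these counts are not a result about the members. The lowest adjusted p was 0.252 at P15 and 0.256 at 8 weeks. The change with age differed between sexes in no member (lowest adjusted p = 0.224).

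Genes that work beside the members were taken from lists. All 13 S phase genes, replication factors such as the helicase subunits Mcm2 to Mcm7 and the ribonucleotide reductase subunit Rrm2, fell from P6 to P15 and to 8 weeks, with medians of -2.07 and -3.53 on the log2 scale. Of all genes 31.4% and 36.6% were lower in these comparisons. The sum of the S phase genes ran from 1198 to 1546 CPM at P6, 357 to 481 at P15 and 246 to 328 at 8 weeks, without overlap. Rrm2 fell from a mean of 92.6 CPM to 2.06 at 8 weeks (log2 -5.50).

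Of the 11 replication-independent histone genes, which replace histones outside S phase and carry poly(A) tails, 10 fell from P6 to 8 weeks and 0 rose. Of all genes 36.6% were lower and 37.8% higher. H2afx, whose mRNA can also end in the stem-loop, went from a mean of 94.0 to 11.6 CPM, and H1f0, the linker histone of resting cells, from 316 to 89.0. H3f3b had means of 1431 and 1280 CPM and passed no test. Of 20 histone chaperones, which carry histones to DNA, 19 fell from P6 to 8 weeks, among them Chaf1a (log2 -4.45) and Chaf1b (log2 -4.63), subunits of chromatin assembly factor 1. Of all genes 36.6% were lower.

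Of 13 genes that make and end histone mRNA, 6 fell and 2 rose from P6 to 8 weeks, against 36.6% and 37.8% of all genes. Slbp, the stem-loop binding protein, had means of 44.4, 30.0 and 34.2 CPM in order of age and fell by 0.37 (log2) from P6 to 8 weeks. Lsm11, of the U7 particle that cuts the mRNA, fell by 1.48, and Npat, the S phase activator of histone genes, had means of 15.4, 14.4 and 18.5 CPM and passed no test. Of the 4 decay genes matched among 6, Eri1, the exonuclease that trims the stem-loop, fell by 0.97, Lsm1 fell, Upf1 rose and Exosc10 passed no test.

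How the libraries capture mRNA without a poly(A) tail could bear on the levels of members whose mRNA lacks the tail. Among 8 RNAs that lack the tail, Rn7sk was read at 58.1, 105 and 81.4 CPM, Rn7s2 at no more than 0.471 CPM in any age mean, and 6 did not pass the filter, of which Terc had 0 counts. Whether the library step selected poly(A) RNA is not given in the sources used here, and the part of capture in the members' levels was not tested.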

How the data were processed

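Libraries were directional mRNA libraries, 1 per mouse. The authors trimmed reads with fastp 0.20.0, aligned them with STAR to GRCm38 (mm10) and counted fragments per gene with featureCounts of Subread; the deposited values are raw counts, not normalized. Reads that align to several places are not counted by default, which matters for near-identical histone genes. The annotation release and any poly(A) selection are not given in the sources used here. Gene symbols, biotypes and coordinates were taken from GENCODE M21, and 260 of 55401 IDs had no name there.

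Genes at 0.5 CPM or more in at least 5 of 34 mice were kept. Counts were scaled by TMM and fitted with edgeR 4.0.16 (R 4.3.3) as 1 mean per age and sex group, averaged over sexes for age. The robust quasi-likelihood test was used, with Benjamini-Hochberg adjustment over all 17612 genes and a threshold of 0.05. A gene "rose" or "fell" only if it passed. A test against a 2-fold change gave the second counts. The scripts were checked on simulated counts. Each age enters 2 comparisons, so these share mice.

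The members and lists were chosen with earlier results of these data known. Named in full were each H1 member, the 2 members of every other class highest per kilobase, the 5 largest falls and 5 largest rises from P6 to 8 weeks, and members that moved against most others. Hist1h2ae is added as the partner of a pair. Alternatives were limma 3.58.1, DESeq2 1.42.0, other scalings, filters, covariates and mice. No pair among 81 within groups looked like 1 library deposited a second time (lowest chi-square per gene 12.7). Of 80 same-numbered pairs of mice from different groups 27 deviated together with a correlation over 0.1, not every pair, so numbers were not treated as pairing mice. Intervals of log2 differences come from the fit and include the spread between mice, while limits for a count of 0 cover counting error only.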

Additional observations from a re-analysis of the deposited data

Results flagged for a closer look

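Of 156 sets of 4 or 6 mice of 1 age and sex tested for a mouse far from the rest (Dixon's test), 9 were marked, and chance alone marks about 1 in 20. Among P15 males, Hist3h2ba stood at 14.8 CPM in male 1 (next 7.70) and Hist1h1e at 12.3 CPM in male 5 (next 5.06). Among P15 females, Hist1h3c was at 0.429 CPM (next 0.206) and Hist3h2a at 13.4 CPM (next 9.98), both in female 4, and Hist4h4 was lowest in female 1 at 0.262 CPM (next 0.626). Among P6 males, Hist1h4h was at 2.08 CPM in male 6 (next 1.12). At 8 weeks, Hist1h1b was at 0.144 CPM in male 6 (next 0.0375), Hist1h2ag at 0.165 CPM in female 2 (next 0.0571) and Hist1h3c at 0.0286 CPM in female 6 (0 in the other females), all within 0 to 7 counts a mouse.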

How the results depend on the processing

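Requiring 10 counts in every mouse left 13 members, with 4 lower and 3 higher from P6 to P15, 2 and 7 from P6 to 8 weeks, and 2 and 6 from P15 to 8 weeks. This filter removes genes that fell and genes that rose. Apart from the covariate fit from P6 to 8 weeks, whose share is given above, the counts in this paragraph carry no share of all genes. They show how the calls depend on the setting and are not results about the members against other genes. A minimum of 1 CPM in 5 mice left 26 members. With the neural marker covariate 2, 2 and 5 members were higher from P6 to P15, P6 to 8 weeks and P15 to 8 weeks. In the same order 9, 7 and 3 extended members and 16, 11 and 5 others were lower. With only P15 and 8 weeks in the filter and the fit 24 members could be tested, with 1 lower and 9 higher. Per kilobase, Hist1h1c made up 33.0%, 50.4% and 41.3% of the members at P6, P15 and 8 weeks, and extended members 80.9%, 91.4% and 90.2%. Leaving out each P6 female gave 24 to 28 lower and 6 to 8 higher from P6 to P15, and 19 to 22 lower from P6 to 8 weeks. Without P6 female 5 the rise of Hist4h4 to P15 missed the threshold (adjusted p = 0.0721), and without P6 female 3 Hist1h2be passed it (log2 0.48, adjusted p = 0.0307). The rise of Hist4h4 to P15 also missed it with scaling by library size (adjusted p = 0.0516) and with the neural marker covariate (log2 0.21, adjusted p = 0.633). With the replicate number as a block 28, 21 and 7 members were lower and 7, 11 and 12 higher, and the calls of Hist1h1c and Hist1h2ag between P15 and 8 weeks were lost; 12 of 34 mice correlated best with their own number, a hint from the data and not from the design.

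Signs changed in 23 of the values recomputed for the named members, and 936 kept direction and side of the threshold. With the neural covariate the log2 change from P6 to P15 was -0.10 for Hist1h1c, -0.67 for Hist1h1d, -0.60 for Hist1h1e, -0.25 for Hist1h2ac and -0.32 for Hist1h3d. From P6 to 8 weeks it was -1.40 for Hist1h1c, -0.96 for Hist1h1d, -1.28 for Hist1h1e, -0.46 for Hist1h2bg, -0.15 for Hist1h3d, -0.077 for Hist1h4d and 0.14 for Hist3h2a. From P15 to 8 weeks it was -0.29 for Hist1h1d, -0.68 for Hist1h1e, -0.18 for Hist1h2ad, -0.81 for Hist1h2bg (adjusted p = 0.0387) and 0.011 for Hist3h2a. Scaling by library size, which moved the median of all genes to -0.14 at P15 and -0.10 at 8 weeks against P6, gave -0.11 for Hist3h2a at P15 and -0.0080 for Hist2h3c2 from P15 to 8 weeks. Without single P6 females, values near 0 ran from -0.00093 (without female 3) to 0.029 for Hist3h2a at P15 and from -0.00505 to 0.019 for Hist2h3c2 from P15 to 8 weeks, where the sign turned without female 2, 3 or 5. The cause of these changes was not tested. Members at 8 weeks with 0 to 9 counts a mouse have folds of uncertain size.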
